A study of Homo sapiens with 16 samples.

Results

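The late part of phorbol ester induced differentiation of K562 cells was described by comparing cells after 72 h with cells after 24 h of treatment. K562 is an established human leukaemia line of mixed erythroid and myeloid character, used here as wild type, and phorbol 12-myristate 13-acetate (PMA) is an activator of protein kinase C that drives the line towards a megakaryocyte-like state. Both groups received PMA at 25 nM, and the medium was changed after 24 h and again after 48 h. The comparison took 4 of the 16 libraries of the series, the 2 labelled 24 h and the 2 labelled 72 h, and the 48 h libraries, which did not enter the choice of groups, were used to show how each gene moved in between. Total RNA was depleted of ribosomal RNA and sequenced, and the values were estimated reads per transcript, summed per gene. The other libraries cover 0, 0.5, 1.5, 3 and 6 h, again with 2 each. No culture kept without PMA for 24 h or 72 h was among the samples analysed here, so time on PMA, time in culture and the medium changes cannot be told apart.

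Megakaryocytes are the large bone marrow cells that shed platelets. During maturation they place integrins and other platelet receptors on their surface, fill granules with adhesive and growth factor proteins, rebuild their cytoskeleton, and replicate DNA without dividing. In K562 cells the first hours on phorbol ester are a burst of immediate-early transcription, and the receptors and matrix genes of the adherent state come later.

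The 24 h libraries held 33073509 and 54056289 estimated reads and the 72 h libraries 37976689 and 32063125, with 33458595 and 37689730 at 48 h. Levels are given per library, replicate 1 then replicate 2, in CPM, the read count of a gene relative to its library's total, scaled by the trimmed mean of M-values. Of 17559 genes tested, 4617 (26.3%) differed between 72 h and 24 h at an adjusted p under 0.05 in edgeR's quasi-likelihood test, and such genes are called. Higher calls numbered 2435 (13.9% of the genes tested) and lower calls 2182 (12.4%). The 4 libraries did not overlap between the times for 4615 of the 4617. Over all tested genes, called or not, both 72 h libraries stood above both 24 h libraries for 27.6% and below them for 29.9%. The rises were the larger changes: 1286 of the higher calls but 196 of the lower calls were at least 2-fold, and the median log2 fold change was 1.07 among higher calls and −0.49 among lower calls. Without 24 h replicate 2, the most deeply sequenced library of the 4, calls fell to 2345 (1641 higher, 704 lower). With libraries scaled to their total counts the share of calls that were higher went from 52.7% to 65.1% (2888 higher, 1549 lower), and the median of all genes from 0.0 to 0.09 on the log2 scale. With the GC trend of each library removed 3981 genes were called higher and 2144 lower, and with counts derived from TPM 2017 and 1354. Counts of list members called under another fit are to be read beside that fit's calls over all genes. The labels do not say that the replicates were separate cultures, so the p values measure the spread between these libraries, which may be technical. In bulk RNA, fewer cells of a type and less RNA per cell cannot be told apart.

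**Figure D1:**
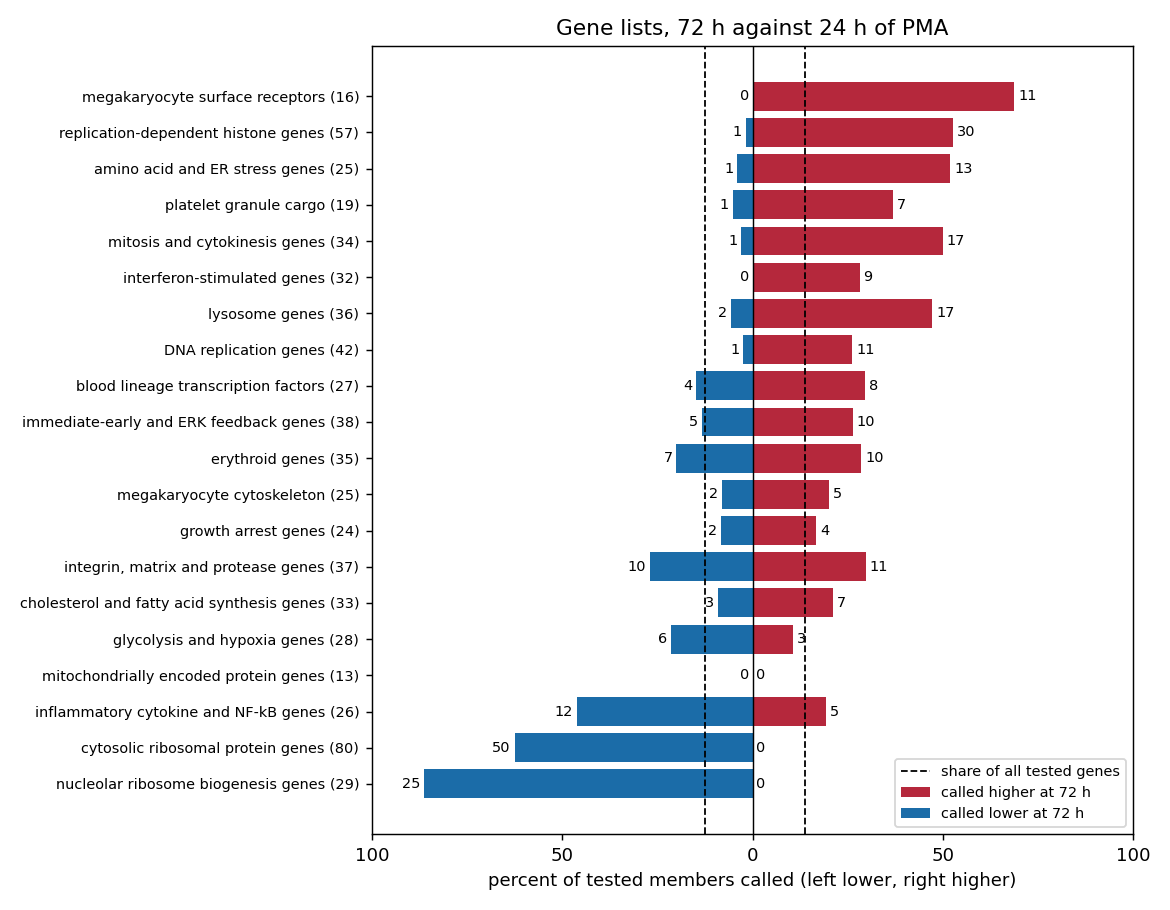
Percent of tested members of each of 20 gene lists called higher (right) or lower (left) at 72 h against 24 h, with the number called beside each bar and the number tested in brackets. Dashed lines mark the shares of all tested genes, 13.9% higher and 12.4% lower. The 29 nucleolar genes reach furthest to the left with 25 called lower, and the 16 platelet receptor genes furthest to the right with 11 called higher.

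Among the 12 genes with the largest rises were a keratin, an integrin, a Notch ligand and a gap junction gene. The keratin gene KRT75 (chromosome 12, 52424070 to 52434525; coordinates are GRCh38 from GENCODE 29) held 0.194 and 0.249 CPM at 24 h, 2.96 and 2.40 CPM at 48 h and 13.4 and 13.96 CPM at 72 h. The gene was near 0 at 24 h and both 72 h libraries stood far above every earlier one, with a log2 fold change of 5.90 ± 0.32 (SE; adjusted p = 1.44e-06; 2 libraries a side, as for every such value). ITGA6 (chromosome 2, 172427354 to 172506282), the alpha 6 integrin subunit that pairs with beta 1 or beta 4 in laminin receptors, held 1.97 and 1.85 CPM at 24 h, 10.9 and 11.3 CPM at 48 h and 84.2 and 74.7 CPM at 72 h (log2 fold change 5.38 ± 0.24; adjusted p = 8.97e-09). The 48 h values sat near the middle of that range on the log scale, so the gene rose steeply in both 24 h steps. JAG1 (chromosome 20, 10637684 to 10673999), a ligand of Notch receptors, held 1.74 and 1.64 CPM at 24 h, 23.01 and 23.5 CPM at 48 h and 71.03 and 61.9 CPM at 72 h, with a log2 fold change of 5.30 ± 0.18 (adjusted p = 1.35e-09). GJA4 (chromosome 1, 34792998 to 34795747), the gap junction protein connexin 37, went from 0.226 and 0.270 CPM to 11.6 and 12.2 CPM. Its mean at 0 h was 0 CPM, and that of JAG1 was 0.330 CPM.

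Protease genes and a protease inhibitor were also among the 12. PRSS2 (chromosome 7, 142760398 to 142774564), an anionic trypsinogen, held 10.2 and 12.6 CPM at 24 h, 159 and 173 CPM at 48 h and 417 and 454 CPM at 72 h, a 38.00-fold rise (log2 5.25 ± 0.16, adjusted p = 4.95e-10) with no overlap between times. PRSS2 has close paralogs, PRSS1 among them, so its reads could have been split or shared by the transcript quantification. CTSE (chromosome 1, 206009264 to 206023909), the aspartic protease cathepsin E, rose from 4.13 and 3.78 to 93.7 and 90.3 CPM, and A2M (chromosome 12, 9067664 to 9116229), the plasma protease inhibitor alpha-2-macroglobulin, from 2.03 and 2.20 to 87.9 and 65.7 CPM. The 72 h replicates of A2M differed from each other by less than 1.5-fold, far less than the distance between times. CGA, the alpha subunit shared by the pituitary glycoprotein hormones, held 1.68 and 1.66 CPM at 24 h, 23.3 and 25.3 CPM at 48 h and 42.9 and 32.8 CPM at 72 h. The remaining genes with the largest rises were SGIP1, an endocytosis protein, the collagen gene COL22A1, the secretory granule phosphatase-like gene PTPRN2 and the C-type lectin CLEC10A, with log2 fold changes of 5.57, 4.69, 4.51 and 4.43 and adjusted p from 1.92e-08 (PTPRN2) to 5.72e-07 (SGIP1).

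IL19 (chromosome 1, 206798870 to 206842981), a cytokine of the interleukin 10 family, had 0 reads in both 24 h libraries, 2.86 and 2.45 CPM at 48 h and 16.7 and 12.8 CPM at 72 h. Against a floor of 3 reads in each 24 h library the 72 h level was at least 185-fold higher (adjusted p = 2.26e-06). FKBPL, an immunophilin-like gene on chromosome 6, was also listed at 0 reads in both 24 h libraries, with 12.8 and 12.7 CPM at 48 h, 11.5 and 11.7 at 72 h and a mean of 8.62 at 0 h. A transcript of 1345 nt without a gene model in the annotation used here held 8.94 and 9.50 CPM at 24 h and 0 at 48 h and 72 h, so the FKBPL difference is uncertain and no fold is given for it. Of the transcripts without a gene model, 2 had reads at 24 h alone and 2 at 48 h and 72 h alone. Whether all libraries were quantified against the same sequences is not given in the sources used here, which limits every 0 at 24 h, the IL19 bound included.

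Among the 12 genes with the largest falls were the protease genes MMP10 and MMP1, a mucin, a collagen and the cytokine IL11. At 24 h, 11 of the 12 stood above their 0 h mean, TCN1 being the exception. MMP10 (chromosome 11, 102770503 to 102780628), stromelysin 2, a protease that degrades matrix proteins, held 21.5 and 21.3 CPM at 24 h, 2.53 and 1.95 CPM at 48 h and 0.752 and 0.437 CPM at 72 h. The fall of −5.15 ± 0.30 on the log2 scale (adjusted p = 1.58e-07) left both 72 h libraries under 1 CPM. MUC5AC (chromosome 11, 1157953 to 1201138), a gel-forming mucin, went from 15.9 and 16.5 to 0.446 and 0.812 CPM, and COL5A3, a minor fibrillar collagen chain, from 105 and 105 to 7.50 and 5.65 CPM. HPGD, the enzyme that inactivates prostaglandins, fell from 85.4 and 77.3 to 11.6 and 8.81 CPM, while PTGS2, the cyclooxygenase that makes their precursor, rose from 4.20 and 4.79 to 28.4 and 20.1 CPM (log2 fold change 2.43 ± 0.22, adjusted p = 4.16e-06; PTGS2 was a member of the cytokine list and is set beside HPGD after its values were seen). GAL, the neuropeptide galanin, SLC27A2, a fatty acid transport protein, MLC1, TCN1, a vitamin B12 binding protein, MMP1 and RASL11A fell with log2 fold changes from −2.65 (MLC1) to −2.27 (RASL11A). For each fall named by size, both 72 h libraries stood below both 24 h libraries, which the naming rule required.

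**Figure D2:**
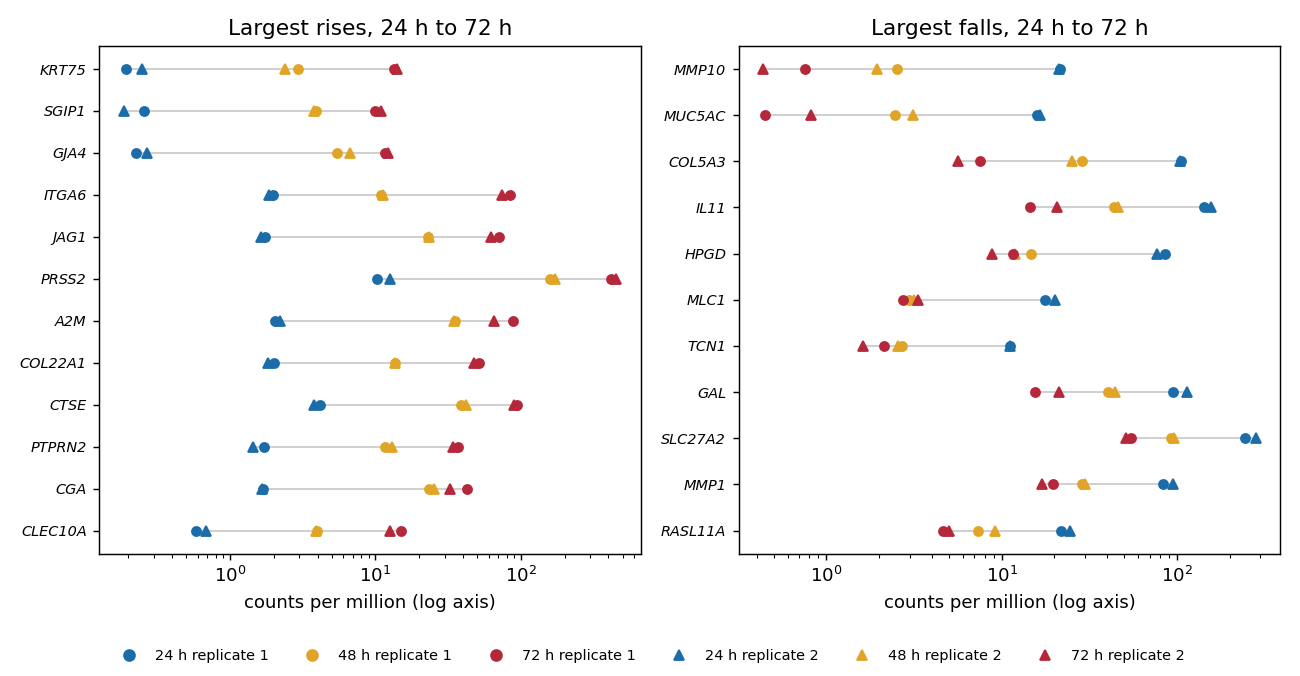
CPM on a log axis in each 24, 48 and 72 h library for the 12 protein-coding genes with the largest rise (left) and 11 of the 12 with the largest fall (right) of the called genes that averaged 5 CPM or more. Circles are replicate 1 and triangles replicate 2. For all 23 genes the 48 h points lie between the others or beside the 72 h points, and KRT75 rises from 0.194 and 0.249 CPM to 13.4 and 14.0 CPM.

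Most platelet surface receptor genes that could be tested were higher at 72 h. Of 23 listed, 16 passed the filter on low counts, and 11 of these were called higher and 0 lower (13.9% and 12.4% of all tested genes), with a median log2 fold change of 0.69 against 0.0 over all tested genes. This and the other lists were chosen with earlier results of these libraries known, so their direction is not independent evidence, and members under the filter are left out of each count. ITGA2B (chromosome 17, 44372180 to 44389505) and ITGB3 encode the alpha IIb and beta 3 subunits of the platelet fibrinogen receptor. ITGA2B held 13.2 and 12.9 CPM at 24 h, 33.01 and 34.1 CPM at 48 h and 59.4 and 64.4 CPM at 72 h, against a mean of 57.7 CPM at 0 h, so it was low at 24 h and near its 0 h mean at 72 h. Its log2 fold change was 2.24 ± 0.11 (adjusted p = 1.86e-08). ITGB3 was already at 496 and 508 CPM at 24 h and reached 1176 and 1008 CPM, a log2 fold change of 1.12 ± 0.11 (adjusted p = 6.11e-06), from a mean of 1.52 at 0 h. The alpha IIb and beta 3 genes thus reached 72 h by different routes, and the 4 libraries of each did not overlap.

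CD226 (chromosome 18, 69831158 to 69961803), an adhesion receptor of platelets and lymphocytes, had the largest rise of the receptor list, with 16.3 and 13.6 CPM at 24 h, 48.5 and 42.1 CPM at 48 h and 87.03 and 63.4 CPM at 72 h (log2 fold change 2.33 ± 0.17, adjusted p = 5.72e-07). The 72 h replicates were further apart than those at 24 h, and both lay above every 48 h value. The thrombin receptors F2RL3 (PAR4) and F2R (PAR1) went from 17.7 and 18.3 to 45.4 and 52.01 CPM and from 108 and 121 to 185 and 166 CPM. ESAM, PECAM1 and PEAR1, which act in contacts between platelets, had log2 fold changes of 1.75, 0.96 and 0.75. The ADP receptor P2RY1 (26.2 and 25.3 CPM at 24 h and 25.4 and 19.3 CPM at 72 h) and the thromboxane receptor TBXA2R (28.95 and 31.8 CPM at 24 h and 22.5 and 30.6 CPM at 72 h) were not called. Whether the von Willebrand receptor genes GP1BA, GP9, GP5 and GP1BB took part in the rise cannot be told from these counts. GP1BA and GP9 were under the count filter with 5 reads at most in any of the 4 libraries. The same held for SELP, CLEC1B and P2RY12, which encode other receptors. GP5 stayed under 0.5 CPM, and GP1BB held 4.03 and 17.7 CPM at 24 h but 0 and 58.4 CPM at 72 h, a replicate split that leaves it uncalled. Exons of GP1BB overlap those of SEPTIN5 on the same strand, at means of 24.6 and 198 CPM over the 24, 48 and 72 h libraries. How reads were divided between them was not tested. GP6 was not analysed here. Without 72 h replicate 2, 2 members of the list were called lower.

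Of 22 granule cargo genes listed 19 were tested, and 7 were called higher and 1 lower, against 13.9% and 12.4% of all tested genes. The median log2 fold change was 0.39, but 0.14 and 0.21 when 24 h replicate 1 or 2 was left out, 0.22 and 0.19 when 72 h replicate 1 or 2 was, and 0.17 with counts derived from TPM. MMRN1, multimerin 1, a factor V carrier of platelet alpha granules, rose from 0.194 and 0.187 to 6.16 and 4.84 CPM (log2 fold change 4.83 ± 0.35, adjusted p = 2.12e-05). THBS1, thrombospondin 1, an adhesive glycoprotein, was called higher, with 2654 and 2618 CPM at 24 h, 4228 and 4150.2 CPM at 48 h and 4916 and 4270.5 CPM at 72 h. PDGFB and PDGFA, the chains of platelet-derived growth factor, were called higher too, at log2 fold changes of 0.98 and 0.64, as were SPARC, APP and CLU at 1.78, 2.27 and 1.15. SRGN, the proteoglycan core serglycin, was the 1 member called lower, with 343 and 312 CPM at 24 h and 265 and 167 CPM at 72 h, and that call was lost without either 24 h library or without 72 h replicate 2. PF4 and F13A1, abundant in marrow megakaryocytes, were under the filter with 1 read at most in any of the 4 libraries, and PPBP stayed under 1 CPM.

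Of 25 tested cytoskeletal genes of platelet formation, 5 were called higher and 2 lower, a share of 28.0% against 26.3% over all genes, with a median of 0.02. Higher calls numbered 10 with libraries scaled to total counts and 12 with the GC trend removed. Those fits called 2888 and 3981 of all 17559 tested genes higher, against 2435 in the fit reported. TUBB1 (chromosome 20, 59019254 to 59026654), the beta 1 tubulin of the platelet marginal band, held 1.55 and 1.33 CPM at 24 h, 11.1 and 11.4 CPM at 48 h and 16.1 and 14.7 CPM at 72 h (log2 fold change 3.43 ± 0.18, adjusted p = 2.06e-08). Most of the rise was in place by 48 h. Exons of TUBB1 overlap those of ATP5F1E on the other strand, at a mean of 151 CPM, and whether the counting used strand is not given in the sources used here. The same limit touches ALAS2 (with APEX2), CCND1 (LTO1), CMPK2 (RSAD2), SQSTM1 (MGAT4B) and TUBA4A (STK16). It also touches other genes reported here, such as CCNA2 (EXOSC9), TYMS (ENOSF1), NPC1 (RMC1) and PFKM (SENP1). On the same strand, TM7SF2 shares exons with VPS51, LOXL2 with ENTPD4 and HBE1 with HBG2, so their reads may be shared. MYLK, myosin light chain kinase, rose from 45.4 and 45.6 to 313 and 286 CPM (log2 fold change 2.72 ± 0.16), and the actomyosin genes MYH9 and TPM4 by 0.59 and 0.62 on the log2 scale. TUBA4A and the formin DIAPH1 were called lower at −0.63 and −0.52, and TUBA4A lost its call without 24 h replicate 2 or 72 h replicate 1 and with counts derived from TPM. FLNA, TLN1, VCL and ZYX, which link actin to integrins, were not called, with log2 fold changes from −0.33 to 0.23.

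Among 27 tested lineage transcription factors, 8 were called higher and 4 lower, against 13.9% and 12.4% of all tested genes. The median of 0.15 became 0.09 and 0.24 when 24 h replicate 1 or 2 was left out and 0.02 without 72 h replicate 2. With the GC trend of each library removed 13 factors were called higher. That fit called 3981 of all 17559 tested genes higher, against 2435 in the fit reported. FLI1 (chromosome 11, 128686535 to 128813267), an ETS factor needed for late megakaryocyte genes, was near 0 at 24 h, with 3 reads over both libraries, then held 0.549 and 0.725 CPM at 48 h and 4.43 and 4.53 CPM at 72 h, where 304 reads were counted. The ratio of 72 h to 24 h was 118, with an exact 95% interval of 40.1 to 576 that covers counting error only (edgeR adjusted p = 1.27e-06). Its relatives ETS1 and ERG went from 48.7 and 52.8 to 164 and 146 CPM and from 11.6 and 14.2 to 26.4 and 24.4 CPM. NFE2, a subunit of the factor that drives platelet formation genes, held 17.1 and 20.8 CPM at 24 h, 44.8 and 48.2 CPM at 48 h and 50.5 and 55.98 CPM at 72 h (log2 fold change 1.49 ± 0.14, adjusted p = 4.76e-06), and GATA1 rose from 82.98 and 85.6 to 129 and 137 CPM. The 4 lower calls were GATA2, MYB, IKZF1 and GFI1, factors of blood progenitors. GATA2 fell from 443 and 541 to 281 and 353 CPM, MYB from 108 and 113 to 57.99 and 58.2 and IKZF1 from 69.1 and 70.7 to 44.00 and 41.3, and GFI1 from 4.16 and 3.88 to 0.864 and 0.750 CPM (log2 fold change −2.31 ± 0.29, adjusted p = 6.23e-05). RUNX1, TAL1, GFI1B, LMO2 and LYL1 were not called, with log2 fold changes from −0.02 to 0.15.

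**Figure D3:**
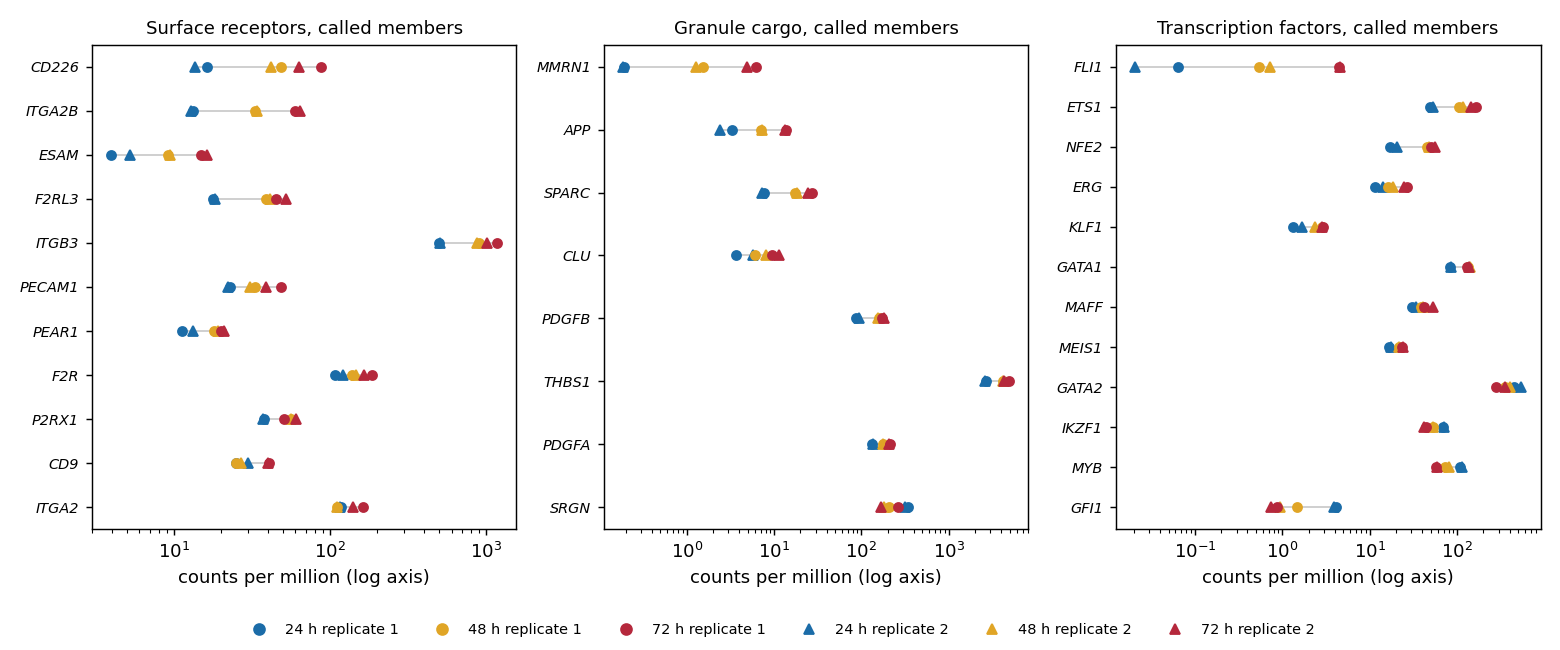
CPM on a log axis in each 24, 48 and 72 h library for the called members of 3 lists, platelet surface receptors (11 genes), granule cargo (8 genes) and blood lineage transcription factors (12 genes). Circles are replicate 1 and triangles replicate 2. FLI1 spans the widest range, from 0.0646 and 0.0208 CPM at 24 h to 4.43 and 4.53 CPM at 72 h.

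Of 35 tested erythroid genes 10 were called higher and 7 lower (median 0.13), against 13.9% and 12.4% of all tested genes. Lower calls numbered 3 with libraries scaled to total counts or with counts derived from TPM and 4 with DESeq2. Over all tested genes these fits called 1549, 1354 and 1812 lower, against 2182 in the fit reported. ALAS2, the erythroid form of the first heme synthesis enzyme, rose from 1.84 and 1.74 to 8.22 and 7.78 CPM (log2 fold change 2.16 ± 0.15, adjusted p = 2.6e-07), still under its mean of 28.4 CPM at 0 h. The alpha-type globin genes HBZ, HBA1 and HBA2 had log2 fold changes of 2.16, 1.94 and 1.97, and the embryonic HBE1 of 0.70. HBA1 and HBA2 are near-identical, as are HBG1 and HBG2, so the split of reads within each pair is uncertain. HBG1 was called at 0.62 and HBG2 was not, at 0.50. HEMGN, a nuclear protein of red cell precursors, fell from 170.0 and 192 to 76.2 and 65.4 CPM. EPB42 was at the floor, with under 0.2 CPM at 24 h and 0 reads in both 72 h libraries, and its call was lost with DESeq2 and without 24 h replicate 2 or either 72 h library. Lower calls of the list numbered 4 and 2 when 24 h replicate 1 or 2 was left out, and 3 when 72 h replicate 2 was.

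The immediate-early and ERK feedback genes, which answer kinase signalling within minutes, showed 10 of 38 called higher and 5 lower, against 13.9% and 12.4% of all tested genes. The median log2 fold change was 0.14, and it was −0.00 and 0.32 when 24 h replicate 1 or 2 was left out and −0.03 without 72 h replicate 2. NR4A1, an orphan nuclear receptor, fell from 369.6 and 390.0 to 152 and 186 CPM (log2 fold change −1.17 ± 0.14, adjusted p = 3.87e-05), and MYC from 94.4 and 128 to 49.7 and 64.9. EGR1 (1075 and 1302 CPM at 24 h and 875 and 1148 CPM at 72 h), FOSB (231 and 270.0 CPM at 24 h and 228 and 285 CPM at 72 h) and SPRY4 (480.2 and 495 CPM at 24 h and 492 and 499 CPM at 72 h) overlapped between times and were not called. The phosphatases DUSP10, DUSP1 and DUSP4, which switch off MAP kinases, rose by 0.88, 0.68 and 0.64 on the log2 scale, and EGR4 by 1.66. Higher calls numbered 5 with counts derived from TPM and 16 with the GC trend removed. Over all tested genes those fits called 2017 and 3981 higher, against 2435 in the fit reported.

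Inflammatory genes split sharply. Of 26 tested, 5 were called higher and 12 lower, against 13.9% and 12.4% of all tested genes, with a median log2 fold change of −0.45. The interleukin 1 genes rose: IL1B (chromosome 2, 112829751 to 112836903) held 14.5 and 15.1 CPM at 24 h, 79.2 and 80.3 CPM at 48 h and 176 and 158 CPM at 72 h (log2 fold change 3.49 ± 0.13; adjusted p = 2.09e-09), and IL1A went from 3.81 and 4.27 to 43.9 and 36.6 CPM. Their natural antagonist IL1RN moved the other way, from 59.8 and 61.7 to 16.9 and 18.4 CPM (log2 fold change −1.78 ± 0.18, adjusted p = 1.38e-05). CSF1, the macrophage growth factor, rose from 28.05 and 29.8 to 85.2 and 94.97 CPM. IL11 (chromosome 19, 55364389 to 55370463), a cytokine that promotes megakaryocyte maturation, held 143 and 157 CPM at 24 h, 43.7 and 46.3 CPM at 48 h and 14.5 and 20.6 CPM at 72 h (log2 fold change −3.10 ± 0.17; adjusted p = 3.11e-08). The related cytokine LIF fell from 106 and 110.4 to 58.7 and 60.4 CPM and the chemokine CXCL8 from 43.3 and 47.00 to 13.3 and 10.1. NF-kB subunits and some targets were among the lower calls. NFKB2 and NFKB1 had log2 fold changes of −1.13 and −0.55, and RELB was called lower too. The targets BIRC3 and ICAM1 had log2 fold changes of −1.56 and −0.73, and the inhibitor NFKBIA, also a target, of −0.44. TNFAIP3, another inhibitor, was called higher at 0.34. The higher calls, IL1B and IL1A among them, were not sorted into targets and others. The falls named here therefore do not stand for NF-kB targets as a set. CCL4 and CCL3 varied widely between replicates and were not called.

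Matrix and adhesion genes were called about as often in each direction, 11 higher and 10 lower of 37 (median −0.00). Of all tested genes 13.9% were called higher and 12.4% lower. Beside ITGA6, the collagen-modifying oxidase LOXL2 rose from 11.04 and 10.1 to 89.7 and 90.7 CPM (log2 fold change 3.09 ± 0.12, adjusted p = 2.05e-09), the gelatinase MMP2 from 0.129 and 0.145 to 3.04 and 3.34 and its inhibitor TIMP2 from 0.904 and 0.602 to 5.63 and 4.84 CPM. The collagen VI chains COL6A3 and COL6A2 rose by 1.04 and 1.87 on the log2 scale. The collagenase and gelatinase genes MMP1 and MMP9 fell by 2.28 and 1.69 on the log2 scale, and the urokinase system was also called lower. The urokinase gene PLAU went from 51.1 and 49.1 to 33.3 and 26.1 CPM, its receptor PLAUR from 195 and 215 to 149 and 153 and its inhibitor SERPINB2 from 179 and 172 to 78.1 and 59.5. VIM, the intermediate filament protein vimentin, fell from 6006 and 6687 to 4055 and 4158 CPM. The fibronectin receptor subunit ITGA5 fell by 0.41 on the log2 scale, while its partner ITGB1 (1236 and 1337 CPM at 24 h and 1397 and 1170.4 CPM at 72 h) overlapped between times.

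**Figure D4:**
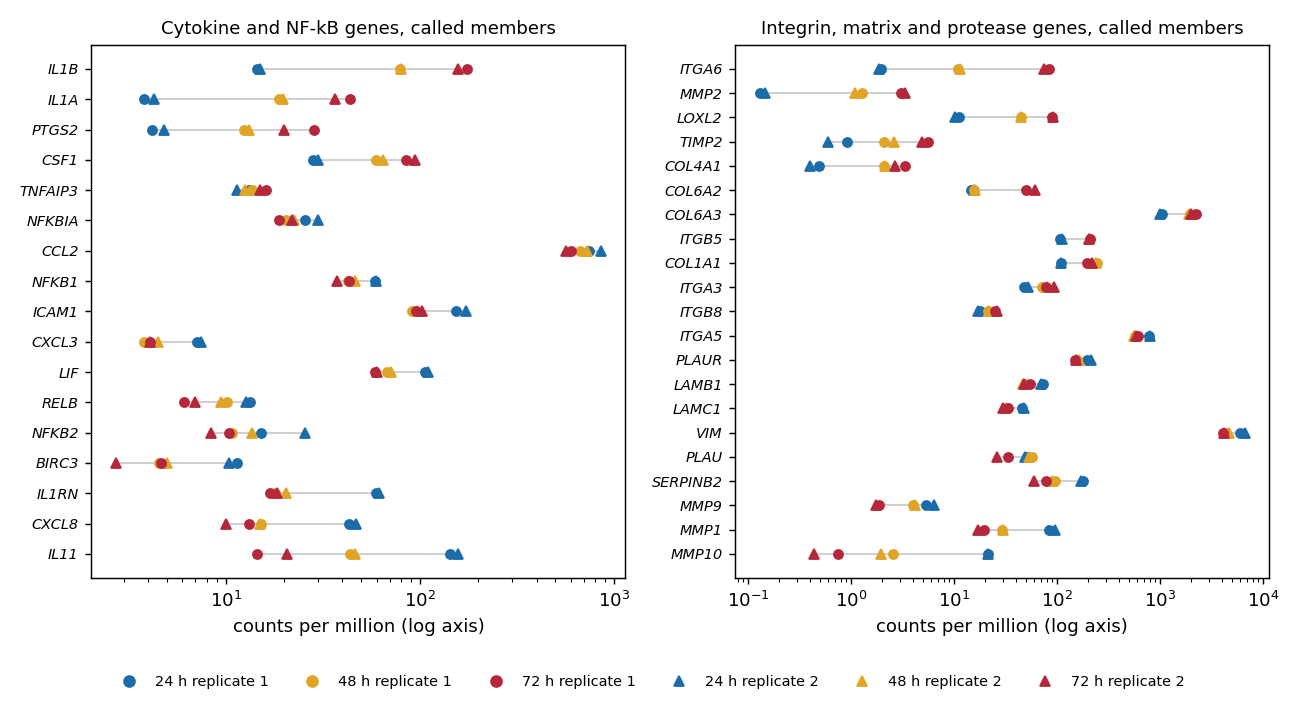
CPM on a log axis in each 24, 48 and 72 h library for the called members of the cytokine and NF-kB list (17 genes, left) and of the integrin, matrix and protease list (21 genes, right), ordered by log2 fold change. Circles are replicate 1 and triangles replicate 2. IL1B lies at 14.5 and 15.1 CPM at 24 h and at 176 and 158 CPM at 72 h, and IL11 runs the opposite way.

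Most ribosome genes fell. Nucleolar ribosome biogenesis genes, which process ribosomal RNA and assemble the subunits, had the largest share of calls in a single direction of the 20 lists: 25 of 29 tested were called lower (86.2%, against 12.4% of all tested genes), 0 higher, with a median log2 fold change of −0.51. BOP1, which matures the large subunit with PES1 and WDR12, held 47.3 and 49.3 CPM at 24 h, 39.9 and 39.96 CPM at 48 h and 23.7 and 26.7 CPM at 72 h (log2 fold change −0.94 ± 0.17, adjusted p = 0.00124). Its 48 h libraries were closer to 24 h than to 72 h. UTP20, a scaffold of the small subunit processome, went from 106 and 103 to 59.8 and 50.1 CPM, RRP12 from 131 and 135 to 74.7 and 76.1 and the RNA acetyltransferase NAT10 from 117 and 131 to 77.9 and 75.2. POLR1A, the largest subunit of RNA polymerase I, fell from 189.8 and 183 to 140.3 and 135 CPM. NOP56, RRP9, NCL and NIP7 were the 4 not called, with log2 fold changes from −0.25 to −0.09. Without 24 h replicate 2 the calls fell to 12 (median −0.42) and without 72 h replicate 2 to 16 (median −0.41).

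The promoters of these genes were read because the list moved most uniformly. RefSeq's promoter table (GRCh38.p14) held 24 of the 29, and the 250 bases before the gene start were searched on both strands. The ETS-type core CCGGAAG was found in 8 of the 24 (33.3%), against 8.82% of all 27305 promoters of the same length, whether or not their genes were tested. It was in 6 of the 20 called lower, and RRP9 and NIP7, which were not called, hold it too. A part of this motif in the falls was not tested. The E-box CACGTG, a motif added after the values were seen, was in 2 of 24 (8.33%, against 6.49% of all), CCAAT in 6 (25.0% against 33.0%) and TTTGAA in 3 (12.5% against 13.6%). The remaining 5 motifs were found in 0 of the 24. These were the AP-1 type TGANTCA (6.60% of all promoters), the GATA type AGATAA (9.37%), the sterol type TCACNCCAC (0.875%), the interferon-stimulated response element core (3.07%) and the E2F type TTTGGCGC (0.553%). A match is a run of letters, not a shown binding site. The 4 members with the largest falls among those called lower whose window holds CACGTG or CCGGAAG were chosen after their values were seen and are printed 5′ to 3′ on the gene's strand, ending at the base before the start, with matches to any of the 9 motifs in capitals. UTP20 (chr12:101279855-101280104, plus strand) and NAT10 (chr11:34105379-34105628, plus strand) hold CACGTG 10 and 15 bases before the start. NOP16 (chr5:176388599-176388848, minus strand) holds CCGGAAG on both strands in an overlapping pair, and DDX21 (chr10:68955920-68956169, plus strand) holds CCGGAAG and TTTGAA.
UTP20: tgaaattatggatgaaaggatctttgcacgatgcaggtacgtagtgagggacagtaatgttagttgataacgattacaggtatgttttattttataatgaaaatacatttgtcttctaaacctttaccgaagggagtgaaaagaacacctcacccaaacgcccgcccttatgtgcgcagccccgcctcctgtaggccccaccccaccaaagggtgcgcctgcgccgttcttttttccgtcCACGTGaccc
NAT10: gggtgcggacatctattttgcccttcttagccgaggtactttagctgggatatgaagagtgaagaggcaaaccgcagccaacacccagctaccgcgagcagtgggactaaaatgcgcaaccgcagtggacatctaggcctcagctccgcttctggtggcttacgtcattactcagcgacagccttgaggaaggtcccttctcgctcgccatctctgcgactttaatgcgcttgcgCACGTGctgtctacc
NOP16: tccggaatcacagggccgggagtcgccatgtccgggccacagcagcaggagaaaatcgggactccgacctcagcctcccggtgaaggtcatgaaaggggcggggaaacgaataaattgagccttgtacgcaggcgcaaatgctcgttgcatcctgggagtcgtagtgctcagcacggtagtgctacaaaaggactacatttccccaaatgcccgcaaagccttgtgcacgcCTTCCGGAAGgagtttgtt
DDX21: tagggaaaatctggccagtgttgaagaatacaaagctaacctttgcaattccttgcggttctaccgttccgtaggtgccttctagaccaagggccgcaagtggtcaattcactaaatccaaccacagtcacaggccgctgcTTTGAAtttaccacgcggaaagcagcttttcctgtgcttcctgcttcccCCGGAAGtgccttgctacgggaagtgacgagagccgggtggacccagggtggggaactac

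The cytosolic ribosomal protein genes, the structural partners of that machinery, showed 50 of 80 called lower and 0 higher (62.5%, against 12.4% of all tested genes, median −0.48). RPS23 held 859 and 872 CPM at 24 h, 572 and 559 CPM at 48 h and 522 and 389.6 CPM at 72 h (log2 fold change −0.92 ± 0.14, adjusted p = 0.000253). The summed level of the list was 43656 and 48016 CPM at 24 h, 36757 and 38488 CPM at 48 h, then 34200 and 31759 CPM at 72 h, with no overlap between the times. Ribosomal protein genes have many processed pseudogenes, so single genes may share reads with copies. RPS27L and RPL39L, 2 paralogs of the standard proteins, had log2 fold changes of 0.04 and −0.00 and were not called. The number of calls depended on single libraries more than the direction did, with 7 called lower without 24 h replicate 2 (median −0.32) and 19 without 72 h replicate 2 (median −0.41), and 31 with counts derived from TPM. The difference between the 72 h replicates correlated with GC content across 9975 genes at r = −0.568, and that between the 24 h replicates at r = −0.317. For the log2 fold change between times it was −0.0361. Genes are not independent replicates, and the part of GC content in the ribosomal calls was not tested beyond the corrected fit. That fit called 44 of the 80 lower, and 2144 of all 17559 tested genes.

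Many cell cycle genes stood higher at 72 h than at 24 h and highest at 48 h. Of 34 tested mitosis and cytokinesis genes, 17 were called higher and 1 lower (median 0.35), and of 42 DNA replication genes 11 were called higher and 1 lower (median 0.22). In either direction 52.9% and 28.6% were called, against 26.3% of all tested genes (13.9% higher and 12.4% lower). The 48 h mean was the highest of the 3 times for 27 of the mitotic and 39 of the replication genes. At 72 h, 29 of the 34 mitotic and 36 of the 42 replication genes were still below their 0 h mean. MKI67 was not among them. The 48 h and 0 h counts were not made over all tested genes, so they describe these lists alone. MKI67, the proliferation antigen Ki-67, held 236 and 248 CPM at 24 h, 413 and 459.5 CPM at 48 h and 379 and 414 CPM at 72 h, against a mean of 357 at 0 h (log2 fold change 0.71 ± 0.11, adjusted p = 0.000399). TOP2A, which untangles replicated DNA, went from 309.6 and 305 to 534 and 393 CPM, and the mitotic kinase partner CCNA2 from 43.4 and 49.6 to 66.9 and 57.2. RRM2, a subunit of ribonucleotide reductase, rose from 166 and 183 to 337 and 305 CPM. CDC6 and TYMS rose by 0.69 and 0.65 on the log2 scale. The MCM helicase genes had smaller differences: MCM7 was called at 0.43, while MCM2 to MCM6 were not, at 0.03 to 0.25. UBE2C, a mitotic ubiquitin enzyme under 1 CPM in every library from 24 h on, was the mitotic gene called lower, and GINS3 the replication gene called lower, at −0.28, a call lost with DESeq2, with other scalings and filters and when any 1 of 3 libraries was left out. The counts leaned on single libraries. Higher mitotic calls numbered 8 when either 24 h replicate 1 or 72 h replicate 1 was left out and 11 when 24 h replicate 2 was, and higher replication calls 5 without 24 h replicate 1. Scaling to total counts gave 25 mitotic and 19 replication genes called higher, and with the GC trend of each library removed 30 and 28, while counts derived from TPM gave 11 and 6. Over all tested genes these fits called 2888, 3981 and 2017 higher, against 2435 in the fit reported. In 72 h replicate 2, 31 of the 34 mitotic genes and 33 of the 42 replication genes were lower than in 72 h replicate 1.

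Histone genes of the replication-dependent clusters gave the clearest course over the 3 days. Most of their transcripts lack poly(A) tails, and these libraries were made by depletion of ribosomal RNA. Of 70 listed 57 were tested, and 30 were called higher at 72 h and 1 lower (median 0.59), against 13.9% and 12.4% of all tested genes. H1-5, a linker histone chosen here after its values were seen, held 8.55 and 8.70 CPM at 24 h, 37.4 and 37.7 CPM at 48 h and 27.6 and 26.3 CPM at 72 h, against a mean of 68.6 at 0 h. H3C7, the histone gene with the largest rise, held 2.94 and 4.71 CPM at 24 h, 15.5 and 21.5 CPM at 48 h and 11.5 and 14.1 CPM at 72 h (log2 fold change 1.72 ± 0.29, adjusted p = 0.000787). The summed histone level was 1706 and 1933 CPM at 24 h, 3688 and 4022 CPM at 48 h, then 2548 and 2638 CPM at 72 h, and 6690 and 9082 at 0 h. The 48 h sums lay above those of 24 h and 72 h, the 48 h mean was the highest of the 3 for 51 of the 57 genes, and 56 of the 57 genes were below their 0 h mean at 72 h. Those counts were not made over all tested genes. Both 48 h libraries stood above every 24 h and 72 h library for 46 of the 57, against 1026 (5.84%) of all tested genes. Many histone genes are near-identical in sequence, so values of single genes are uncertain, as for HIST2H2AA3 and HIST2H2AA4. H2BC6, the member called lower, lost its call with DESeq2, with no filter on low counts and without either 24 h library or 72 h replicate 2. Without 24 h replicate 1, 19 were called higher, and without 72 h replicate 1, 4 were called lower.

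The test of 48 h against the midpoint of 24 h and 72 h, which sets 2 libraries against 4, showed which genes did not move evenly. It called 302 genes (1.72%), 249 above the midpoint (1.42%) and 53 below (0.302%). Histone genes made up 35 of the 249, from a list of 57 tested, and 13 of 42 replication genes and 6 of 34 mitotic genes were also above, with 0 below in these 3 lists. RLN3 (chromosome 19, 14028148 to 14031042), the peptide hormone relaxin 3, was a sharp peak: it held 18.1 and 21.98 CPM at 24 h, 203 and 237 CPM at 48 h and 103 and 133 CPM at 72 h, and 48 h stood 2.18 ± 0.12 above the midpoint on the log2 scale (adjusted p = 1.19e-06). IL19 and FKBPL, both without reads at 24 h, were also among the 5 farthest above. The midpoint is taken on the log2 scale, so their rank rests on that 0 and does not show an early rise. IL19 held means of 2.66 CPM at 48 h and 14.8 CPM at 72 h. GJA4 and CGA had more of their log2 rise before 48 h, at 1.80 ± 0.21 and 1.61 ± 0.15. CDKN1C, a cyclin-dependent kinase inhibitor outside the naming rule and chosen after its values were seen, peaked at 48 h with 8.90 and 8.78 CPM, against 3.52 and 3.55 at 24 h and 3.54 and 5.03 at 72 h (adjusted p = 0.00944). Below the midpoint lay MLC1, HPGD and GCNA, whose falls were nearly complete by 48 h, and COL6A2, which held 14.7 and 15.6 CPM at 24 h, 15.7 and 15.9 CPM at 48 h and 50.1 and 60.9 CPM at 72 h with most of its rise after 48 h (−0.88 ± 0.13, adjusted p = 0.00253). The midpoint call of COL6A2 was lost without either 48 h library, that of HPGD without 48 h replicate 2, and that of IL19 without any 1 of the 24 h and 48 h libraries. For 2073 of the 2435 genes called higher at 72 h (85.1%) and 1901 of the 2182 called lower (87.1%), the 48 h mean lay between the other means. This test rested more on single libraries than the main comparison, with 57 and 94 calls when 48 h replicate 2 or 1 was left out, and 154 and 169 when 24 h replicate 1 or 2 was.

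**Figure D5:**
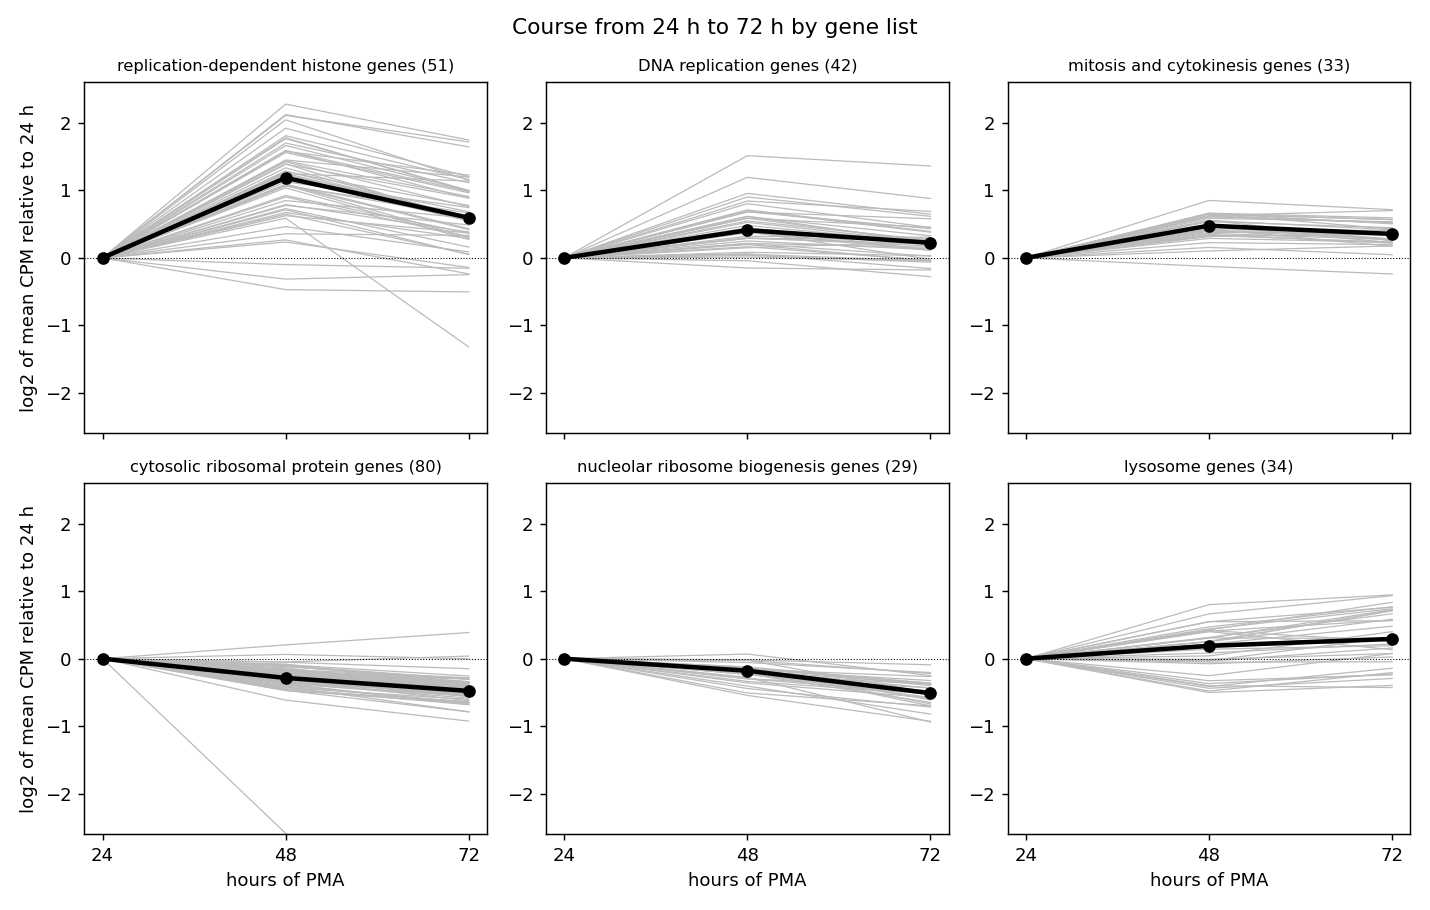
Mean CPM of 2 libraries at 24, 48 and 72 h on a log2 scale relative to 24 h, for genes of 6 lists with at least 1 CPM at 24 h (number in brackets). Grey lines are genes and the black line is the median gene. The histone median rises to 1.19 at 48 h and returns to 0.59 at 72 h, the nucleolar median falls to −0.18 and then −0.51, and 1 gene, RPS9, runs below the axis.

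Of 36 tested lysosome genes 17 were called higher and 2 lower (median 0.31), against 13.9% and 12.4% of all tested genes. Cathepsin protease genes were among those called higher. CTSL held 1636 and 1746 CPM at 24 h, 2306 and 2382 CPM at 48 h and 3034 and 2729 CPM at 72 h. CTSB went from 574 and 622 to 1004 and 975 CPM and CTSD from 85.7 and 88.4 to 123 and 135. NPC1, the lysosomal cholesterol exporter, rose from 236 and 241 to 433 and 418 CPM (log2 fold change 0.83 ± 0.08, adjusted p = 7.6e-06), and TPP1 from 258 and 293 to 445 and 475. GAA, acid alpha-glucosidase, had the largest log2 fold change of the called members, 1.07, at about 2 CPM, and its call was lost without 24 h replicate 2. SQSTM1, the autophagy receptor p62, was called lower at −0.43, a call lost when any 1 of the 4 libraries was left out and with DESeq2 size factors or counts derived from TPM. Lower calls of the list numbered 4 without 72 h replicate 1 and 0 without any of the other 3. The regulators TFEB and TFE3 were not called.

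Amino acid synthesis and stress genes showed 13 of 25 called higher and 1 lower (median 0.42), against 13.9% and 12.4% of all tested genes. ATF4, the transcription factor of the amino acid response, held 86.6 and 96.8 CPM at 24 h, 165 and 178 CPM at 48 h and 202 and 209 CPM at 72 h (log2 fold change 1.17 ± 0.10, adjusted p = 2.47e-06). The asparagine and serine synthesis genes ASNS, PHGDH and PSAT1 went from 18.9 and 18.9 to 62.9 and 44.4 CPM, from 15.8 and 16.5 to 42.2 and 43.3 and from 8.84 and 8.78 to 23.9 and 16.7, with means of 438, 241 and 332 CPM at 0 h. All 3 were called higher at 72 h and stood far below their 0 h means. CHAC1, a glutathione-degrading enzyme, and DDIT4, an inhibitor of mTORC1 signalling, rose by 2.42 and 1.53 on the log2 scale, and the chaperone gene CALR from 538 and 662 to 955 and 1014 CPM. The cystine transporter SLC7A11 was the member called lower (33.1 and 26.6 CPM at 24 h and 17.1 and 13.9 CPM at 72 h). Higher calls numbered 8 without 24 h replicate 2 or without 72 h replicate 1.

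Glycolysis genes were called lower in 6 of 28 and higher in 3 (median −0.12). In either direction 32.1% were called, against 26.3% of all tested genes. PKM, pyruvate kinase, held 1616 and 1808 CPM at 24 h, 1087 and 1124 CPM at 48 h and 915 and 944 CPM at 72 h (log2 fold change −0.88 ± 0.11, adjusted p = 4.86e-05), and ENO1, PFKM, LDHA, GPI and HK2 were called lower at −0.62 to −0.34. The glucose transporter SLC2A3 rose from 260.1 and 266 to 564 and 476 CPM. Lower calls numbered 3 without 24 h replicate 2. Of 33 cholesterol and fatty acid genes 7 were called higher and 3 lower (median −0.03). That is 30.3% called in either direction, near the 26.3% of all tested genes. SQLE, a sterol synthesis enzyme, was not called. The higher calls of that list, INSIG1, FADS1 and TM7SF2 among them, numbered 3 and 4 when 24 h replicate 1 or 2 was left out, and the lower calls 5 when 72 h replicate 1 was. With the GC trend removed 12 genes of that list and 8 of the glycolysis list were called higher. That fit called 3981 of all 17559 tested genes higher, against 2435 in the fit reported.

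Of 32 interferon-stimulated genes 9 were called higher and 0 lower (median 0.32), against 13.9% and 12.4% of all tested genes. In either direction 28.1% were called, near the 26.3% of all tested genes. CMPK2 rose from 3.87 and 3.18 to 10.4 and 8.72 CPM and OAS3 from 4.74 and 4.36 to 9.03 and 10.4. STAT2, ISG15 and IFITM3 were not called, and 5 members were called higher without 24 h replicate 2. Among 24 tested genes of the growth arrest list 4 were called higher and 2 lower (median 0.02), 25% in either direction against 26.3% of all tested genes. Despite its name the list also holds CCND1, a driver of the cell cycle, which was 1 of the 4. CCND1, cyclin D1, which drives entry into S phase, held 161 and 178 CPM at 24 h, 311 and 346 CPM at 48 h and 418 and 398 CPM at 72 h (log2 fold change 1.27 ± 0.09, adjusted p = 5.72e-07), and the inhibitor CDKN2C fell from 31.6 and 33.8 to 22.7 and 21.9 CPM, a call lost without 24 h replicate 2. CDKN1A, the inhibitor p21, overlapped between times (82.01 and 90.5 CPM at 24 h and 82.9 and 92.9 CPM at 72 h). The other calls were SESN3, CCNG2 and RBL1, higher by 0.80, 0.59 and 0.41, and PLK3, at −0.38. The median of the list was −0.002 and 0.11 when 24 h replicate 1 or 2 was left out, and −0.02 without 72 h replicate 1. Higher calls numbered 7 and 9 with total-count scaling and with the GC trend removed. Those fits called 2888 and 3981 of all 17559 tested genes higher, against 2435 in the fit reported.

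The 13 mitochondrially encoded protein genes had 0 calls in either direction with edgeR, 0 at an unadjusted p under 0.05 and 0 with DESeq2, against 2 called lower with no filter on low counts. Their summed level was 24189 and 40549 CPM at 24 h against 29683 and 27641 at 72 h, so the 24 h replicates were further apart than the times.

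Markers of other cell types were read as a check on the label, beside shares of 13.9% called higher and 12.4% lower over all tested genes. The fetal globin HBG2, typical of K562 cells, was present at both times (472 and 422 CPM at 24 h and 758 and 506 CPM at 72 h). Of 11 tested monocyte and macrophage markers 4 were called higher, LYZ, ITGAM, MRC1 and S100A9, and the summed level of the list was 202 and 238 CPM at 24 h and 230 and 256 at 72 h. All 11 had positive log2 fold changes, from 0.03 to 4.60 with a median of 0.44. CD14, their defining surface marker, had 5 reads at most in any of the 4 libraries. Of 5 stromal and endothelial markers tested 4 were called higher, with sums of 116 and 117 CPM at 24 h and 217 and 240.0 at 72 h, most of it COL1A1 (109 and 109.7 CPM at 24 h and 196 and 218 CPM at 72 h). The endothelial genes CDH5 and TEK reached 1.56 and 1.28 and 1.17 and 0.750 CPM, and KDR was under the filter. KIT was called higher among 7 mast cell, basophil and eosinophil markers (16.4 and 17.7 CPM at 24 h and 37.3 and 31.3 CPM at 72 h), and HDC and PRG2 lower, while CPA3 had 0 reads in the 4 libraries. CD3D and CD79A were called higher among 4 lymphocyte markers, with sums of 13.04 and 14.78 CPM at 24 h and 19.6 and 19.2 at 72 h (1 call without 24 h replicate 1). The part of these markers in the changes of the other lists was not tested.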

How the data were processed

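RNA from K562 cells on PMA was sequenced in 16 libraries, 2 for each of 8 times. The authors deposited a Salmon table per library, with estimated counts and TPM, a length-scaled abundance, per transcript, per the file headers. The submitters' processing notes name Trim Galore 0.4.3, Salmon, HISAT2 2.1.0, SAMtools 1.9, deepTools 3.0.1, R 3.3.1, DESeq2 and DESeq 1.33.5, with the builds hg19 and hg38 and no roles. The transcript set they used is not given in the sources used here. Estimated counts were summed per gene through GENCODE 29 (167027 of 177456 transcripts matched, 94.1%, in 35052 genes) and rounded to whole numbers. The transcripts that did not match held 3.09% to 3.54% of the reads of the 24 h and 72 h libraries. Deposited TPM served only for an alternative fit.

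edgeR 4.0.16 in R 4.3.3 (TMM, filterByExpr, quasi-likelihood test) was fitted to all 16 libraries, so that 8 groups shared 1 estimate of the spread, with Benjamini-Hochberg adjustment over 17559 genes. The contrasts were 72 h minus 24 h and 48 h minus the midpoint of 24 h and 72 h. Data were simulated for the comparison of 72 h with 24 h on 17559 genes, with 200 changed and the rest level over all times. The spread was taken from the fit itself. Of these changes 52% of the 2-fold and 85.9% of the 4-fold were recovered, and 4 of 140 calls were false. In the real data 26.3% of genes were called, so these shares check the code and do not measure recovery or false calls here. Replicates differed by more than sampling noise (chi-square per gene 19.9 at 24 h and 31.4 at 72 h). Root mean square differences in log2 CPM over genes were 0.489 and 0.562 between replicates and 0.815 to 0.861 between times.

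The members and the 24 gene lists were chosen with earlier results of these data known. Genes named by size were the 12 protein-coding genes that rose most and the 12 that fell most of the called genes that averaged 5 CPM or more, had no overlap between times and had no split of 0 reads against 1 CPM or more within a time. Called genes of that kind at or under 3 reads in both libraries of a time were given as bounds. From each list the called members with the largest rise and fall were named, and all where fewer than 6 were called, and for the midpoint the 5 farthest on each side. Further members were named after their values were seen, to show each list's range, and some genes the rule names are not reported here. Alternatives were DESeq2 1.42.0 and its size factors, total-count scaling, other filters, GC offsets, a replicate block, TPM-derived counts, a 2-fold test, a threshold of 0.01, fewer libraries and each library left out. Intervals and floors cover counting error only.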

Additional observations from a re-analysis of the deposited data

How the results depend on the processing

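The comparison of 72 h with 24 h gave 4100 calls with DESeq2, 4231 with DESeq2 size factors in edgeR and 4437 with libraries scaled to total counts. It gave 610 when tested against a 2-fold change, 2686 at an adjusted p under 0.01, and 2345 to 4400 when 1 library was left out. Share of higher calls was 52.7% in the fit reported, 65.0% with the GC trend of each library removed (6125 calls, all-gene median shift 0.12), 66.5% with the 24 h and 72 h libraries alone (3083 calls) and 70.0% without 24 h replicate 2. The midpoint comparison (302 calls) gave 642 calls with no filter on low counts, 912 with the GC trend removed, 187 from counts derived from TPM, 127 at an adjusted p under 0.01, 4 in the 2-fold test, and 57 to 333 with 1 library left out. Members of the 20 lists called at 72 h against 24 h numbered 311, against 41 in the 2-fold test and 193 to 273 with 1 library left out. With replicate number as a block, calls were 5060 at 72 h against 24 h, 352 at the midpoint and 344 in the lists, and with the block and the GC trend removed they were 6841, 1302 and 447. Same-numbered libraries had deviations that correlated at 0.129 (24 h and 72 h), 0.16 (24 h and 48 h) and 0.166 (48 h and 72 h), and at −0.118 to 0.211 over all pairs of the 8 times. The labels give no shared culture or day for a number, so the numbers were not taken as pairs. Of 1078 values of the 67 named results under alternatives, 998 stayed called in the same direction, 80 were no longer called and 0 reversed. At least 1 value was no longer called for 28 of the 67 results. These results were named because they were called, so staying called in refits of the same libraries is not independent evidence. Of 280 list medians under alternatives, 27 had the other sign, all in the lists of immediate-early, growth arrest, cholesterol, matrix, glycolysis and mitochondrially encoded genes. The causes were not tested. With 2 libraries a time, an uncalled gene is not shown to be unchanged. The simulation recovered 52% of 2-fold changes, but it changed 200 of 17559 genes. That is far fewer than were called here, so the share missed in these data is not known.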

Other observations

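Gene segments of the T cell receptor loci were detected in these cells, and several variable segments rose late. TRAV8-4, a variable segment of the alpha locus, held 0.516 and 0.436 CPM at 24 h, 3.23 and 3.54 CPM at 48 h and 6.46 and 7.12 CPM at 72 h, with 0 reads in both 0 h libraries (log2 fold change 3.84 ± 0.34, edgeR adjusted p = 3.96e-05). TRAV8-2 of the same locus went from 0.0323 and 0.145 to 0.975 and 1.22 CPM, and the gamma segments TRGV5, TRGV3 and TRGV4 from 1.58 and 2.20 to 6.46 and 5.12, from 0.323 and 0.457 to 1.70 and 1.69 and from 0.226 and 0.249 to 0.613 and 0.812 CPM. The gamma pseudogene TRGV6 rose from 3.55 and 3.76 to 10.1 and 9.31 CPM. In each of these genes both 72 h libraries stood above both 24 h libraries. Variable segments resemble each other, so their reads may be shared.

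None of the 4 constant segments tested (TRBC1, TRAC, TRDC and TRGC1) was called. TRBC1, on chromosome 7 at 142791694 to 142793368, was already high at 24 h, with 74.3 and 80.2 CPM at 24 h, 51.5 and 50.4 CPM at 48 h and 69.2 and 69.1 CPM at 72 h, from a mean of 0.205 CPM at 0 h, and was not called (log2 fold change −0.16, edgeR adjusted p = 0.261). PRSS2, with a 38.0-fold rise, lies in the same region at 142760398 to 142774564, and PRSS1 beside it rose from 0.290 and 0.187 to 1.39 and 1.47 CPM. The pseudogene WBP1LP1 between PRSS2 and TRBC1 was called higher at 2.42, but on few reads, 3 and 7 at 24 h and 19 and 27 at 72 h. On the other side of TRBC1, TRBV30 and EPHB6 were not called at 0.21 and −0.11, and TRPV6 was called higher at 1.52. TRPV6 was low as well, with 0.226 and 0.623 CPM at 24 h and 1.37 and 1.22 CPM at 72 h. CD3D, the T cell receptor subunit on the lymphocyte marker list, went from 10.01 and 12.04 to 17.1 and 16.5 CPM. These genes were chosen after their values were seen, and no explanation was tested.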
